A study of Rattus norvegicus with 10 samples.

Results

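The 7 genes described here are those of the somatostatin and growth hormone axis: the peptide genes *Sst* and *Ghrh*, the somatostatin receptor genes *Sstr1*, *Sstr2*, *Sstr3* and *Sstr4*, and the growth hormone receptor gene *Ghr*. They were taken by gene name from the authors' deposited table, and all 7 were found among its 12828 genes. Each name occurs once, and no other gene of the table overlaps any of the 7. The authors had filtered this table, so ranks and medians of expression below are among its genes, not among all rat genes. mRNA was measured in the arcuate nucleus of the hypothalamus (ARC) of 10 Wistar rat dams in their first pregnancy, killed upon parturition after a daytime fast. Of these, 5 had eaten the 5X-FA diet, with folic acid, and 5 the 5X-MTHF diet, with the calcium salt of [6*S*]-5-methyltetrahydrofolic acid, both through pregnancy, and both in the same AIN-93G base. Both groups received the 5X dose, and dams on 1X diets are not analysed here. The labels give no age. The ARC was cut out free hand from frozen slices, so that the tissue can hold parts of neighbouring nuclei.

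Beside the metabolic phenotype of the dams, its main subject, the study asked whether the high folate diets differ in their effect on genes of the maternal hypothalamus. The columns used here cannot answer it for these genes. The table has 10 columns of values per library, headed only with the numbers 1 to 10, and no label links such a heading to a dam or a diet, so these values were not used. What could be used is the average log2 CPM of each gene over all libraries of the table, as the authors give it. CPM is the read count of a gene scaled to the total count of its library. It is not divided by gene length, so that it ranks genes by their share of the reads and not by their number of transcripts. One value over both diets has no error and no number of replicates, and the values of single dams, the spread between dams and the diet difference are not analysed here. How deeply each library was sequenced cannot be read from this column.

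Somatostatin is made by neurons of the periventricular and arcuate hypothalamus, among other brain areas, and inhibits the release of growth hormone from the pituitary. Growth hormone-releasing hormone, made by neurons of the ARC, stimulates that release. Somatostatin acts through G protein-coupled receptors that lower cyclic AMP, on pituitary cells and on neurons, including those that make growth hormone-releasing hormone. Growth hormone in turn acts through its receptor, which signals by the kinase JAK2 and the transcription factor STAT5, and it feeds back on both groups of hypothalamic neurons. In pieces of whole tissue such as these, fewer cells of a type and less RNA per cell cannot be told apart.

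Promoter windows are shown for *Sst* and *Sstr2*, because they were the 2 members that share the complete cyclic AMP response element, TGACGTCA. This palindrome is bound by CREB and is a classic element of the somatostatin gene. The windows are RefSeq sequences of the build GRCr8, read 5′ to 3′ on the strand of the gene, and run from 250 bases before to 50 bases after an annotated start. The window of *Sst* lies at chr11:90461296-90461595 on the plus strand and that of *Sstr2* at chr10:99163103-99163402 on the plus strand. Capitals mark the element.
Sst: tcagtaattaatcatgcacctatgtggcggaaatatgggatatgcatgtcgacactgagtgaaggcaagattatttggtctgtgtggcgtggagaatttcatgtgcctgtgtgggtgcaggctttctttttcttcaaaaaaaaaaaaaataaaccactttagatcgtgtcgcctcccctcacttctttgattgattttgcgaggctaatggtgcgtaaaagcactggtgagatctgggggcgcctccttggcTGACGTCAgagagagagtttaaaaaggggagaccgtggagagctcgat
Sstr2: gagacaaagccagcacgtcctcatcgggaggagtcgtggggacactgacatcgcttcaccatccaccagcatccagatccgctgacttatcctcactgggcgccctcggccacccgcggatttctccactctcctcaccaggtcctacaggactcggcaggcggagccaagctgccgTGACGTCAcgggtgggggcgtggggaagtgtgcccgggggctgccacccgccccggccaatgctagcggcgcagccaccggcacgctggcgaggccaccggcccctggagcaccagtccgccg

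In the *Sst* window the element begins 2 bases after the annotated start, and in the *Sstr2* window it begins 73 bases before it. These positions hold for the annotated start only. Whether transcription of either gene began there in this tissue was not tested. All 7 members had a window, matched by symbol. The complete element was found in 2 of these 7 windows, and in 1.83% of the 33469 RefSeq windows searched (612 windows). Those windows are not limited to the authors' table, of whose 12828 genes 9456 had a window by symbol. The match in *Sst* could be foreseen, as the element is a classic one of that gene. The share among the members is therefore no measure of enrichment. Its half-site TGACG, searched on both strands and contained in the complete element, was found in *Sst*, *Sstr2* and *Sstr1*. The half-sites of *Sst* and *Sstr2* are parts of the complete element, while that of *Sstr1* stands alone, 15 bases before the start. Of all windows, 21.2% held the half-site. These are matches of letters. The members were few, and nothing was measured here on binding to these windows.

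**Figure D1:**
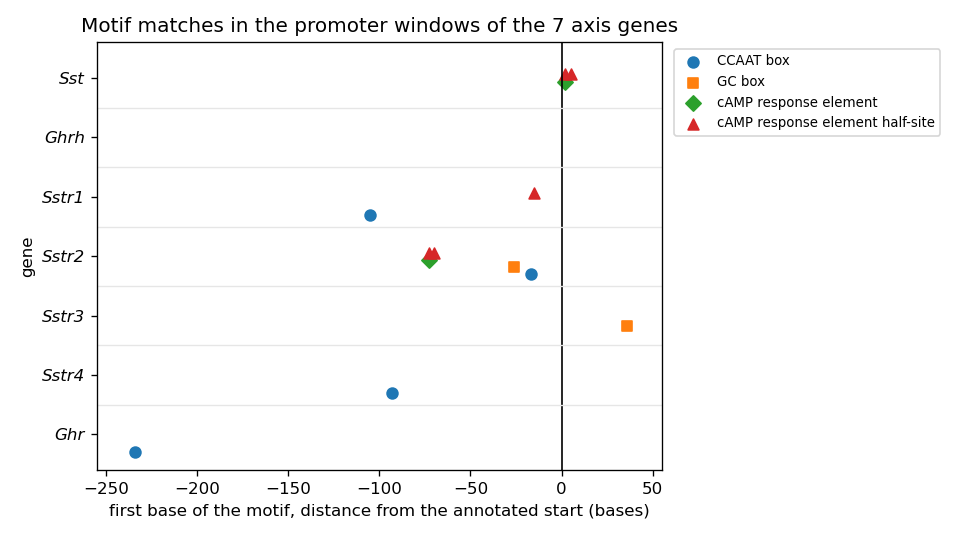
Matches of the searched motifs in the RefSeq promoter windows of the 7 genes. The x axis gives the distance in bases of the first base of a match from the annotated start (vertical line), each row is a gene, and the symbols are motifs. The complete cyclic AMP response element appears in the rows of *Sst* and *Sstr2* only, and the row of *Ghrh* is empty.

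Of the other motifs searched on both strands, the CCAAT box, CCAAT, was found in 4 of the 7 windows, those of *Ghr*, *Sstr1*, *Sstr2* and *Sstr4*, and in 37.5% of all windows. The GC box, GGGCGG, was found in those of *Sstr2* and *Sstr3* and in 33.1% of all windows. Neither the TATA box, TATAAA, nor the STAT5 motif TTCNNNGAA, where N is any base, was found in any of the 7, against 14.2% and 8.87% of all windows. Only these letters were searched, so variant forms of a motif would have been missed. RefSeq annotates several transcripts of *Ghr* and of *Ghrh*, and 1 start of each was searched.

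The windows varied widely in base composition. The *Sstr4* window was 71.7% G and C and held 34 CpG dinucleotides, and the *Sstr2* window was 68.7% G and C with 26. That of *Sstr3* was 62.7% G and C, and that of *Sstr1* was 53.7%. The *Ghrh* and *Sst* windows were 50.7% and 45.7%, below the median of all windows, 51.7%. The *Ghr* window, at 40.0%, held 0 CpG dinucleotides. The somatostatin receptor genes are spread over 4 chromosomes, and the 7 genes over 6. *Sstr4* and *Ghrh* share chromosome 3, where 10.7 Mb lie between them in Rnor_6.0, the build of the authors' table, in which all coordinates below are given.

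*Sst*, which encodes the inhibitory peptide, had an average log2 CPM of 6.35 over all libraries, or 81.8 CPM. A higher value was listed for 2803 of the 12828 genes, which places *Sst* at percentile 78.1 by read share. The gene (ENSRNOG00000001837) lies on chromosome 11 from 80358211 to 80359444, a span of 1234 bases. As a transcript cannot be longer than the span, the average corresponds to at least 66.3 CPM per kilobase of transcript.

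*Ghrh*, which encodes the stimulating peptide, had an average log2 CPM of 1.02, or 2.03 CPM. With 12452 genes higher, it was at percentile 2.92 by read share. That percentile was 1.85 among protein-coding genes and 0.07 among genes whose average log2 CPM was 1 or more. The gene (ENSRNOG00000007782) lies on chromosome 3 from 153449125 to 153468794, and its span of 19670 bases includes introns. Its level per kilobase of transcript therefore cannot be read from the column used here, and the levels of the peptide transcripts were not compared. What the values show is that *Sst* was covered by many more reads than *Ghrh*, so that any value of *Ghrh* per library rests on fewer reads.

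Among the receptors of somatostatin, *Sstr1* had an average log2 CPM of 5.15, or 35.5 CPM, at percentile 54.2 by read share. The gene (ENSRNOG00000048145) lies on chromosome 6 from 79254339 to 79258611. Per kilobase of its transcript this is at least 8.31 CPM, from a span of 4273 bases. *Sstr1* was the receptor gene with the most reads, and the one whose read share was above the median of all genes, which is a log2 CPM of 4.94.

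*Sstr3*, whose receptor is known for its place in the primary cilium of neurons, had an average log2 CPM of 3.87, or 14.6 CPM, at percentile 28.6. The gene (ENSRNOG00000007332) lies on chromosome 7 from 119760888 to 119768082. *Sstr2*, whose receptor is a main mediator of growth hormone inhibition in the pituitary, had an average log2 CPM of 3.08, or 8.47 CPM, at percentile 16.9. The gene (ENSRNOG00000002793) lies on chromosome 10 from 102136283 to 102143434.

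*Sstr4* had an average log2 CPM of 2.16, or 4.46 CPM, at percentile 7.83 by read share, and at 5.13 among genes whose average log2 CPM was 1 or more. The gene (ENSRNOG00000004641) lies on chromosome 3 from 142739781 to 142741644. Its span is short, 1864 bases, which gives at least 2.39 CPM per kilobase of transcript. By read share the receptor genes thus followed the order *Sstr1*, *Sstr3*, *Sstr2* and *Sstr4*. Without the spread between dams, it cannot be said which neighbours in this order differ, and without transcript lengths it is not an order of transcript levels.

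*Ghr*, which encodes the receptor through which growth hormone acts on the brain and on other tissues, had an average log2 CPM of 4.40, or 21.1 CPM, at percentile 38.6 by read share. The gene (ENSRNOG00000015654) lies on chromosome 2 from 53150370 to 53413638, and its span of 263269 bases includes long introns. Of the 7 members, *Sst* and *Sstr1* were above the median of all genes by read share, and *Ghr*, *Sstr3*, *Sstr2*, *Sstr4* and *Ghrh* were below it.

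**Figure D2:**
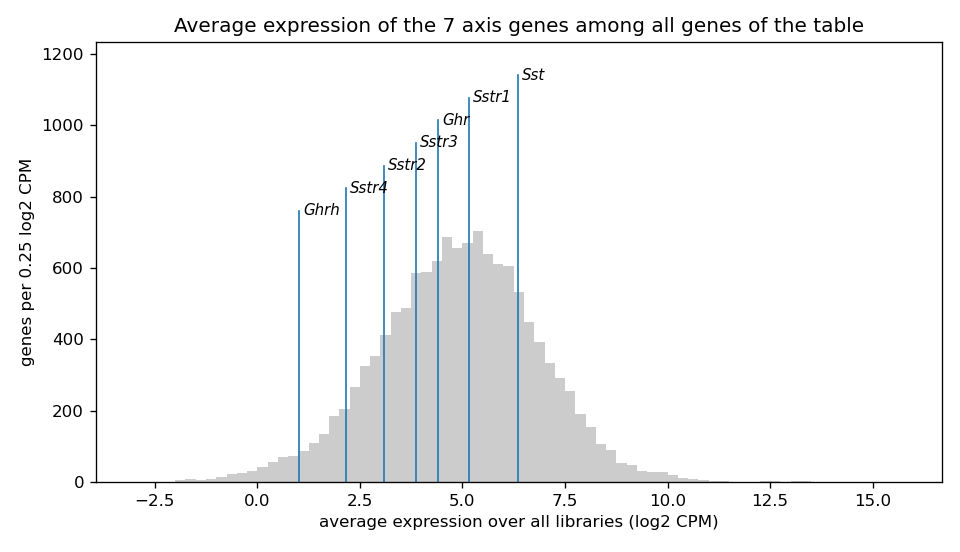
Average expression of the 7 genes (vertical lines, at their average log2 CPM over all libraries) on the distribution of all 12828 genes of the table (grey bars, genes in each bin of 0.25 log2 CPM). The height of the lines carries no value. *Ghrh*, at 1.02, stands in the lower tail, *Sst*, at 6.35, in the upper part of the distribution.

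The members were read beside a list of 30 genes of the same axis, of which 20 were found, the 7 members and 13 others. The genes not analysed here include *Sstr5*, *Cort*, *Ghrhr* and *Gh1*. Of the genes that carry the signal of the growth hormone receptor, the kinase gene *Jak2* had an average log2 CPM of 6.08 and the STAT genes *Stat5b* and *Stat5a* had 5.47 and 3.26. The feedback inhibitor *Socs2*, a target of STAT5, had 2.46. Reads of *Ghr* and of these signaling genes were thus present in the same tissue.

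*Igf1*, which encodes the growth factor through which much of the action of growth hormone runs, had an average log2 CPM of 2.80, and its receptor gene *Igf1r* had 4.21. The binding protein genes *Igfbp5*, *Igfbp2* and *Igfbp3* had 7.80, 5.59 and 3.45. Of the 4 listed genes of peptide processing, which serve many neuropeptides, 3 were found, and *Pcsk1* was not analysed here. *Cpe*, which trims the ends of cut peptides, had an average log2 CPM of 10.74. *Pam*, which amidates neuropeptides other than somatostatin, had 8.89, and the convertase gene *Pcsk2* had 7.81, close to *Igfbp5*. *Ghsr*, which encodes the ghrelin receptor and is expressed by neurons that make growth hormone-releasing hormone, had 1.50, next to *Ghrh* at the lower end of the list by read share.

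**Figure D3:**
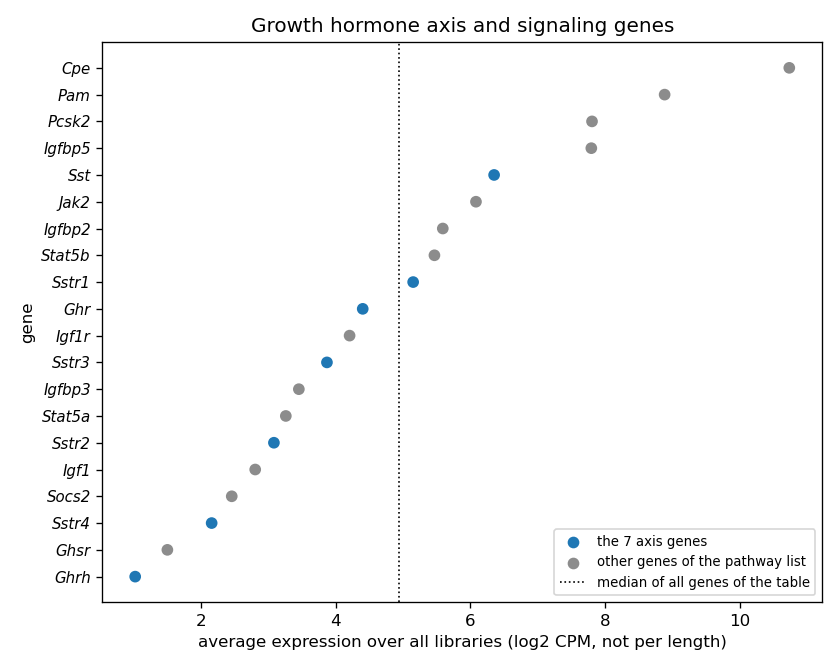
Average log2 CPM over all libraries (x axis, not per length) of the 20 genes found of the axis and signaling list, 1 point a gene, ordered by value. Blue points are the 7 members and grey points the 13 other genes, and the dotted line is the median of all genes, 4.94. The members run from *Ghrh* at 1.02 to *Sst* at 6.35, and *Cpe*, *Pam*, *Pcsk2* and *Igfbp5* lie above all of them.

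The tissue label was checked with lists of markers. Of 7 ARC markers 5 were found, with average log2 CPM from 1.42 for *Agrp* to 6.02 for *Cartpt*. All 7 markers of other hypothalamic nuclei had values, from 1.88 to 9.24, and so did all 7 markers of striatum, from 4.26 to 7.07. Of 5 markers of cerebral cortex and hippocampus 3 were found, from 2.40 to 7.17. The 4 markers of thalamus ran from 2.34 to 5.28. Of the glial lists, the 3 markers of oligodendrocytes had 7.26 to 12.59, the 4 of astrocytes and tanycytes 0.08 to 10.22 and the 3 of microglia 4.18 to 6.82, and the 3 of endothelium had 5.77 to 6.28. Summed over a list, oligodendrocyte markers came to 12010 CPM and the ARC markers found to 119 CPM. Markers of other hypothalamic nuclei came to 1267 CPM and those of striatum to 407 CPM. The markers found of cerebral cortex and hippocampus came to 160 CPM and those of thalamus to 80.6 CPM. The lists hold different genes and CPM is not per length, so these sums are not shares of the tissue. The tissue thus held reads of markers of regions beyond the ARC and of glia. Somatostatin is also made by interneurons of striatum and cortex. As *Sst* has 1 value over all libraries, the share of its reads from each region was not tested. Of 4 pituitary markers only *Cga* was found, at 4.95.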

How the data were processed

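RNA-seq was carried out by the authors on poly-A selected RNA of 10 ARC libraries, 5 of 5X-FA and 5 of 5X-MTHF dams. Per the labels and the paper, the authors trimmed read pairs with Trim Galore 0.5.0, aligned them with STAR 2.6.0c to Rnor_6.0 with Ensembl genes, counted them with HTSeq 0.6.1p2 and compared the diets with DESeq2 1.26.0s in R 3.6.1. The average CPM on a log2 scale, the column used here, was deposited by the authors. How they averaged it is not given in the sources used here. The base was checked by raising 2 to each value, which sums to 1002152 over the 12828 genes.

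Another 4 columns hold the authors' own comparison (log fold change, F statistic, p-value and FDR) and were not used. Whether these columns come from the DESeq2 comparison is not stated in the sources used here. The 10 columns of values per library match no label and were not used either. The limma and edgeR tests planned for the diets were therefore not run.

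Percentiles are the share of genes of the authors' filtered table with a lower average. Motifs were searched on both strands of RefSeq promoter windows (GRCr8). Python 3.11.15 with pandas 2.3.3, numpy 2.4.6, scipy 1.17.1 and matplotlib 3.10.9 was used, and percentiles and motif search were tested on simulated data. The members, the axis list and the markers were chosen with earlier results of these data known, and the motifs after the table was opened. The genes named are all members, the 20 genes found of the axis list and, chosen after their values were seen, a few markers and some of the 10 axis genes not analysed here.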

Additional observations from a re-analysis of the deposited data

How the results depend on the processing

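The percentile of *Sst* by read share, 78.1 among all genes, was 77.6 among the 12383 protein-coding genes and 77.5 among the 12462 genes whose average log2 CPM was 1 or more, both within its 95% binomial (Wilson) interval, which covers counting of genes only. The other 6 members moved beyond theirs, all downward. Among protein-coding genes the percentiles were 53.0 for *Sstr1*, 37.0 for *Ghr*, 26.9 for *Sstr3*, 15.0 for *Sstr2*, 6.22 for *Sstr4* and 1.85 for *Ghrh*. Among the genes with a value of 1 or more they were 52.9, 36.8, 26.6, 14.4, 5.13 and 0.07, in the same order. The second alternative removes only genes of low values, which lowers a percentile by construction, and most for members of low rank. As the percentiles count every gene of the table, the interval holds no sampling error. It therefore does not show that *Sst* is the steadier member. The order of the members could not change, as each keeps its value whatever genes it is ranked among. Their side of the median stayed as given.

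No paired analysis was possible because the columns of values per library carry no sample name and no replicate number that a label matches. For the same reason the alternatives planned for the diet difference (pseudocount, filter, variance model, scaling, count test and leaving out each replicate) were not run. Levels per kilobase of coding sequence or of the longest transcript were not run for want of lengths.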
